A study of Homo sapiens with 6 samples.

Results

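The genes described here carry pyruvate into the mitochondrion and through the tricarboxylic acid (TCA) cycle. They are 42 genes of 39554 in the deposited count table and 24901 in the deposited FPKM table. The 42 were chosen by name and function, with earlier results of these data known. They cover 13 steps or roles: the pyruvate carriers, the pyruvate dehydrogenase (PDH) complex with its kinases and phosphatases, pyruvate carboxylase, the cycle enzymes from citrate synthase to malate dehydrogenase, the malic enzymes and the mitochondrial carboxylate carriers. All 42 had enough reads to be tested.

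The RNA came from SW620 cells, a long-established line from a human colorectal cancer, 72 h after transfection with DharmaFECT1 reagent. Both groups carried the reagent and an siRNA: 3 libraries had the negative control siRNA (siNC) and 3 had an siRNA against SOWAHA, a gene for an ankyrin repeat protein (siSOWAHA). Sample titles gave the groups, since the label for treatment does not differ among the 6 samples. The study is a model of 1 cell line. Whether each library had a culture of its own, and how many siRNA sequences were used, is not in the labels, so p-values here rest on library-to-library spread that could be technical.

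Pyruvate from glycolysis crosses the inner mitochondrial membrane through a carrier built of MPC1 and MPC2. The PDH complex turns it into acetyl-CoA, PDH kinases switch the complex off by phosphorylating its E1 subunit, and PDH phosphatases switch it on again. The cycle then oxidises the acetyl group through citrate, isocitrate, 2-oxoglutarate, succinate, fumarate and malate, while pyruvate carboxylase and the malic enzymes add or remove its 4-carbon acids.

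Library totals ran from 49937395 to 59474396 counts, and the 42 genes together took 0.474% to 0.482% of each library. SOWAHA, the targeted gene, had 32.3, 39.4 and 33.8 CPM (counts scaled to library size) with siNC but 7.52, 6.85 and 8.96 CPM with siSOWAHA, a log2 fold change of -2.18 (SE 0.105). Over all 17693 genes tested with edgeR's quasi-likelihood test, 16.9% passed a Benjamini-Hochberg adjusted p of 0.05 in either direction, 9.12% higher and 7.77% lower in siSOWAHA. Of the epithelial markers, 8 of 9 were listed and 5 of them fell (KRT8, KRT19, CDH1, CDX2 and CDH17), with a summed level of 4609 to 4748 FPKM in siNC and 4268 to 4287 FPKM in siSOWAHA; the ninth, LGALS4, was not analysed here. The 7 fibroblast markers summed to 22.2 to 24.3 FPKM in siNC and 26.0 to 29.7 FPKM in siSOWAHA, nearly all of it from LUM, which rose; COL3A1 and DCN were at or near 0. Leukocyte markers (3 of 6 listed) summed to 7.77 to 8.58 and 6.71 to 7.97 FPKM, and endothelial markers (3 of 4 listed, KDR at or near 0) to 0.194 to 0.310 and 0.178 to 0.320 FPKM. The part of these markers in the results that follow was not tested.

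Of the 42 genes, 5 rose and 3 fell in the siSOWAHA libraries. MPC2, PDK3, PDP2, IDH3A and SDHD were higher, and PDK2, IDH1 and IDH2 were lower. These 8 are 19% of the 42, beside 16.9% of all genes tested. Where the mean reached 10 CPM or more, 8 of 40 members passed (20%), beside 26.1% of all such genes, so the number of calls is close to the background and is no result about these genes as a group. The changes were small: PDK2 fell by 19.8%, the furthest of the called genes, and PDP2 had the highest rise, 16.4%. The median log2 fold change of the 42 genes was -0.003, beside -0.008 over all genes tested, and the median size of the change was 0.10, beside 0.14. In bulk RNA, fewer cells of a type and less RNA per cell cannot be told apart.

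**Figure D1:**
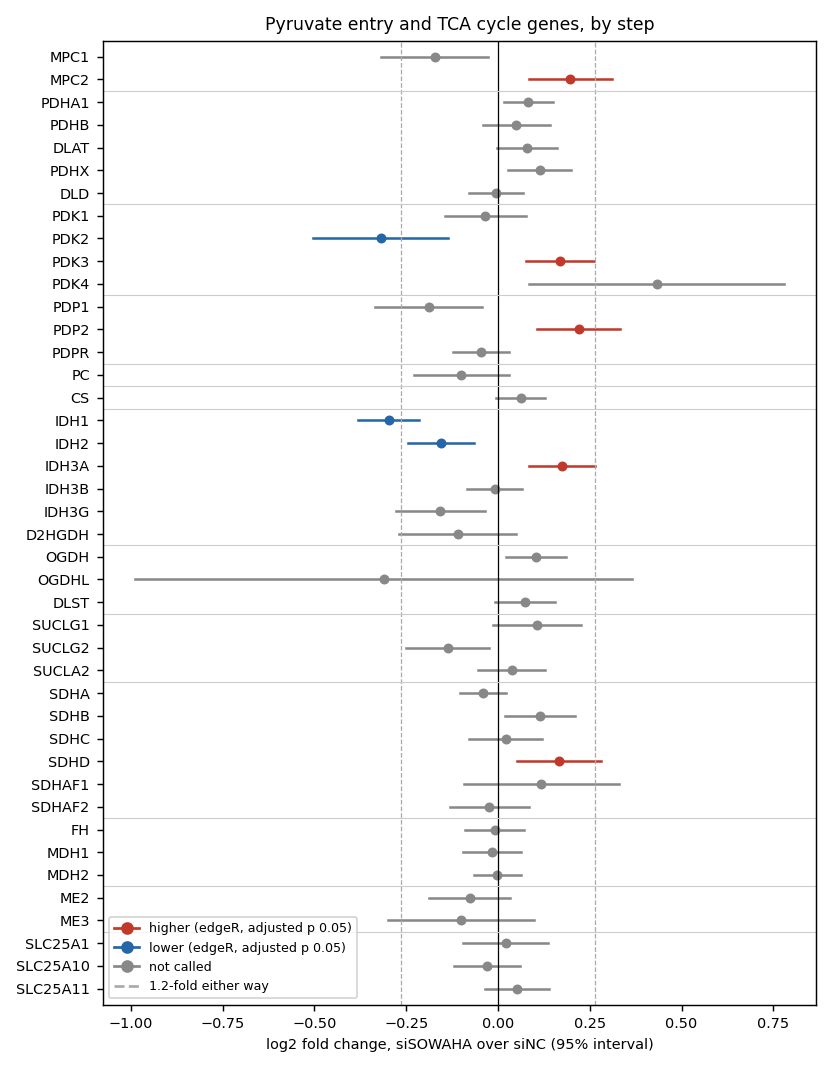
Log2 fold change of each of the 42 genes in siSOWAHA against siNC (3 libraries each, edgeR), ordered by step; points are estimates and bars are 95% intervals, with called genes coloured by direction (red higher, blue lower) and dashed lines at 1.2-fold either way. The 5 rises and 3 falls are spread over 5 steps, 3 of them among the isocitrate dehydrogenases, and OGDHL has the widest interval.

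The groups of 3 libraries did not overlap in CPM for 17 of the 42 genes, beside 33% of all genes tested. Where the mean reached 10 CPM or more, this held for 16 of 40 members, beside 4377 of 10086 such genes. The number is thus close to the background and is no result about these genes as a group. In 10 of the 17 all siSOWAHA libraries were above all siNC libraries, and in 7 they were below. Over all genes tested, 2946 were above and 2890 below. Of the 34 genes that were not called, 26 had a 95% interval of the fold change that lay inside a 1.2-fold change in either direction, so a larger change in these libraries is outside their interval. For the other 8 the interval reached further.

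Levels between genes were compared in FPKM, which is per length. In the siNC libraries the most abundant transcripts of the 42 were those of citrate synthase CS (163 ± 6.83 FPKM, SD, n = 3), which joins acetyl-CoA to oxaloacetate, the mitochondrial malate dehydrogenase MDH2 (138 ± 2.94 FPKM) and its cytosolic counterpart MDH1 (122 ± 2.87 FPKM). CS was thus above both malate dehydrogenases, with an SD that does not reach them. A further 25 genes lay between 10 and 100 FPKM and 13 between 1 and 10 FPKM. OGDHL, an isoform of the 2-oxoglutarate dehydrogenase E1 subunit, was the lowest at 0.412 ± 0.140 FPKM. The length the authors divided by can be read from the ratio of count to FPKM: its median over the 42 genes was 3.84 kb, but it reached 21.9 kb for PDK1, 14.6 kb for SDHC and 14.1 kb for PDK3, which lowers the FPKM of those genes if SW620 cells make shorter transcripts.

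**Figure D2:**
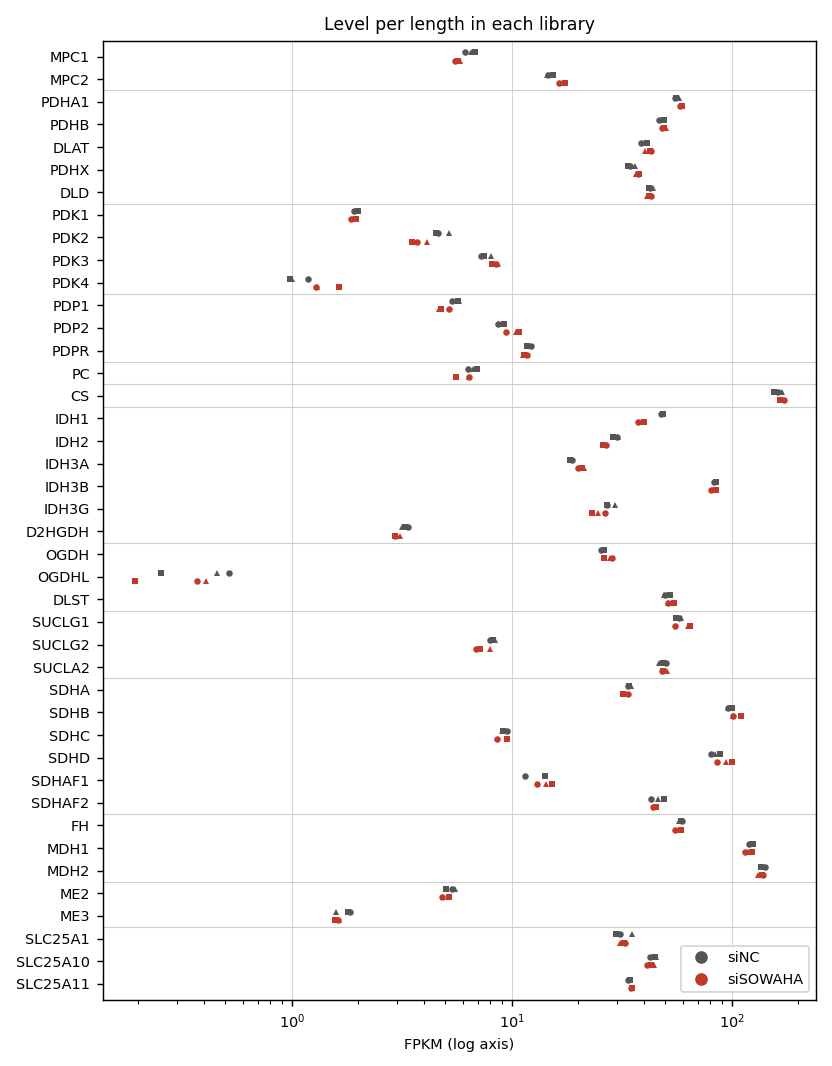
FPKM of each of the 42 genes in each library on a log axis, ordered by step (grey siNC, red siSOWAHA; circle, square and triangle are replicates 1, 2 and 3). CS, MDH2 and MDH1 have the highest levels and OGDHL lies below 1 FPKM, and the differences between genes are far wider than those between groups.

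At the entry step, 1 carrier subunit rose and the other was not called. MPC2 (Entrez gene 25874, GRCh38 chr1:167916675-167937072, minus strand) had 40.8, 42.8 and 39.8 CPM in siNC and 45.8, 49.3 and 46.3 CPM in siSOWAHA. All siSOWAHA libraries were above all siNC libraries. The rise was 14.7% (log2 fold change 0.20, SE 0.053, edgeR adjusted p = 0.0191). Exons of MPC2 share bases with DCAF6 on the opposite strand, which itself rose from 37.2 to 48.9 CPM (0.39, SE 0.051, edgeR adjusted p = 6.9e-05). The library marked strand, but the strand setting of the counting is not given in the sources used here, so reads of the pair may not have been told apart and the value of MPC2 is uncertain. MPC2 missed the threshold when siNC replicate 1 was left out (adjusted p = 0.0662), and likewise siNC replicate 3 (0.0838) or siSOWAHA replicate 2 (0.0874).

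MPC1, the partner subunit, had 26.0, 28.7 and 27.4 CPM in siNC and 23.6, 24.4 and 24.9 CPM in siSOWAHA. All siSOWAHA libraries were below all siNC libraries. It did not pass the count test (-0.17, SE 0.068, edgeR adjusted p = 0.102), but passed as lower in the FPKM table by limma (difference of log2(FPKM + 1) of -0.16, adjusted p = 0.0489). That FPKM call was lost in 9 of 10 alternatives, among them each of the 6 libraries left out (adjusted p from 0.0516 to 0.144). The log2 ratio of MPC1 to MPC2 in FPKM was -1.19 ± 0.054 in siNC and -1.56 ± 0.059 in siSOWAHA (SD, n = 3). The ratio did not overlap between groups, at the smallest exact two-sided permutation p that 3 against 3 libraries can give (0.1, adjusted over 12 ratios 0.2).

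None of the 5 genes of the PDH complex itself passed the test. PDHA1, the catalytic E1 alpha subunit that the kinases phosphorylate, had 210, 210 and 216 CPM in siNC and 221, 228 and 225 CPM in siSOWAHA, without overlap (0.08, edgeR adjusted p = 0.0893). PDHX, which tethers the E3 subunit to the core, also did not overlap, with 98.8, 96.8 and 103 CPM against 107, 110 and 106 CPM (0.11, edgeR adjusted p = 0.0699). For both genes the estimate lay above 0 but missed the threshold. The E1 beta subunit PDHB (0.05, adjusted p = 0.514), the E2 acetyltransferase DLAT (0.08, 0.196) and the E3 subunit DLD (-0.005, 0.946), which the 2-oxoglutarate complex shares, overlapped between groups. The log2 ratio of PDHX to DLAT in FPKM was -0.21 in siNC and -0.17 in siSOWAHA (exact permutation p = 0.5). PDHA1 has an annotated pseudogene, and its counts are uncertain to that extent. Counts of PDHX, DLD, DLAT and PDHA1 are also uncertain for the lack of a stated strand setting, because each shares exon bases with a gene on the opposite strand: APIP (68.3 CPM in siNC and 71.1 in siSOWAHA), LAMB1 (111 and 108 CPM), PIH1D2 (3.47 and 4.06 CPM) and MAP3K15 (7.49 and 8.25 CPM), none of them called. In all, 20 of the 42 genes share exon bases with an opposite-strand gene in GENCODE 29. With a gene on the same strand, 4 do: CS, SDHD, SDHAF2 and SLC25A10.

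The kinases that switch PDH off did not move as 1 group: PDK2 fell, PDK3 rose, and PDK1 and PDK4 did not pass the test. PDK2 (Entrez gene 5164, GRCh38 chr17:50094737-50112152, plus strand), the isoform found in most tissues, had 20.4, 19.9 and 22.9 CPM in siNC and 16.6, 15.8 and 18.3 CPM in siSOWAHA. Every siSOWAHA library was below every siNC library, and siNC replicate 3 was the highest. PDK2 fell by 19.8% (log2 fold change -0.32, SE 0.086, edgeR adjusted p = 0.0191). SAMD14, which shares exon bases with it on the opposite strand, was under 1 CPM. PDK2 missed the threshold when siNC replicate 3 (adjusted p = 0.103), siSOWAHA replicate 1 (0.0529) or siSOWAHA replicate 2 (0.0779) was left out.

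PDK3 (Entrez gene 5165, GRCh38 chrX:24465286-24550466, plus strand), a further kinase isoform, had 102, 106 and 112 CPM in siNC and 120, 116 and 124 CPM in siSOWAHA. The groups did not overlap. PDK3 rose by 12.4% (0.17, SE 0.044, edgeR adjusted p = 0.0145). It was not called in the FPKM table (limma adjusted p = 0.087), and the count call was lost without siNC replicate 1 (0.0817), siNC replicate 2 (0.0532) or siSOWAHA replicate 3 (0.081).

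PDK4, the isoform induced by fasting and fatty acids, was the lowest of the 4 kinases per length (1.06 ± 0.112 FPKM in siNC, SD, n = 3). It had 4.62, 3.83 and 3.88 CPM in siNC and 5.04, 6.48 and 5.10 CPM in siSOWAHA. All siSOWAHA libraries were higher, with siSOWAHA replicate 2 the highest. Its estimate was the largest of the 42 genes (0.43), but its SE of 0.163 was also wide and the edgeR adjusted p was 0.0861. PDK1, a hypoxia-induced isoform, had 42.1, 44.0 and 43.3 CPM against 40.8, 43.6 and 41.9 CPM, and the groups overlapped (-0.03, edgeR adjusted p = 0.735).

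As a share of the summed FPKM of the 4 kinases, PDK2 took 31.0 ± 1.01% in siNC and 24.4 ± 1.33% in siSOWAHA (SD, n = 3). PDK3 took 49.3 ± 0.807% and 54.3 ± 0.982%. PDK4 took 6.90 ± 0.922% and 9.10 ± 1.46%. These 3 shares did not overlap between the groups and each had an exact permutation p of 0.1 (adjusted over 12 ratios 0.2). The PDK1 share of 12.9% and 12.3% overlapped (exact permutation p = 0.3). As parts of the same sum, the shares depend on each other and are not separate results. The shares depend on the gene lengths in the deposited FPKM. Computed from CPM, with no length, PDK2 took 12.0 ± 0.519% and 9.15 ± 0.526% and PDK3 60.9 ± 0.621% and 65.0 ± 1.05%, both again without overlap (exact permutation p = 0.1). The PDK4 share in CPM, 2.36 ± 0.326% and 3.01 ± 0.478%, overlapped (exact permutation p = 0.2). The difference in share thus shrank from -6.63 to -2.88 percentage points for PDK2 and from 2.19 to 0.652 for PDK4.

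On the phosphatase side, PDP2 rose and neither PDP1 nor PDPR was called. PDP2 (Entrez gene 57546, GRCh38 chr16:66880515-66891101, plus strand), a catalytic subunit that removes the kinases' phosphate, had 67.5, 72.0 and 67.7 CPM in siNC and 73.9, 85.0 and 82.3 CPM in siSOWAHA. The groups did not overlap, and siSOWAHA replicate 1 was closest to siNC. The rise was 16.4% (0.22, SE 0.053, edgeR adjusted p = 0.01), and PDP2 was also higher in the FPKM table (limma adjusted p = 0.0496), a call lost in 7 of 10 alternatives. The count call was lost without siNC replicate 1 (0.0523), siNC replicate 3 (0.0532), siSOWAHA replicate 2 (0.058) or siSOWAHA replicate 3 (0.0501).

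PDP1, the calcium-stimulated catalytic subunit, had 27.1, 28.9 and 28.8 CPM in siNC and 26.2, 24.4 and 23.7 CPM in siSOWAHA. All siSOWAHA libraries were lower, but the gene was not called (-0.19, SE 0.069, edgeR adjusted p = 0.0745). PDPR, the regulatory subunit of the phosphatase, overlapped between groups (-0.05, adjusted p = 0.456). The log2 ratio of the summed FPKM of the 4 kinases to that of PDP1 and PDP2 was 0.09 ± 0.079 in siNC and 0.04 ± 0.059 in siSOWAHA (exact permutation p = 0.4), so the sums did not separate although single members did.

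**Figure D3:**
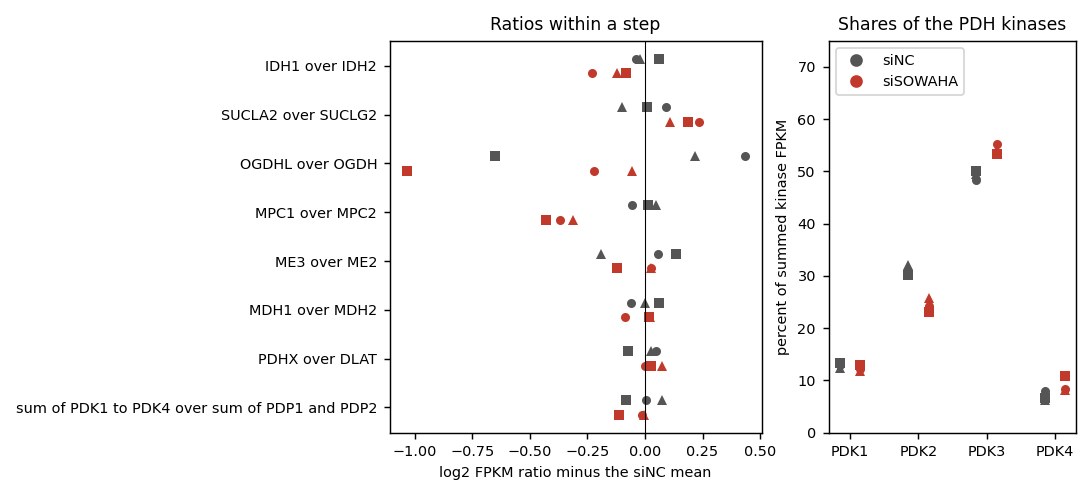
Ratios between partners of a step and shares of the PDH kinases, per library (grey siNC, red siSOWAHA; circle, square and triangle are replicates 1, 2 and 3): log2 ratios of FPKM minus the siNC mean of that ratio (left) and percent of the summed FPKM of PDK1 to PDK4 (right). The MPC1 to MPC2 ratio differs by -0.37 in the siSOWAHA mean, the PDK2 share is lower and the PDK3 share higher in siSOWAHA, and the ratio of kinases to phosphatases overlaps.

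Neither entry into the cycle by carboxylation nor citrate synthesis passed the test. PC, pyruvate carboxylase, which makes oxaloacetate from pyruvate, had a log2 fold change of -0.10 (edgeR adjusted p = 0.312). CS had 511, 489 and 529 CPM in siNC and 544, 526 and 526 CPM in siSOWAHA (0.06, adjusted p = 0.21). The CS groups overlapped, since siNC replicate 3 stood among the siSOWAHA libraries.

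Of 6 genes grouped at the isocitrate dehydrogenase step, D2HGDH among them, 3 were called. Both NADP-dependent enzymes fell and the catalytic subunit of the NAD-dependent enzyme rose. The called share of 50% was also reached by the pyruvate carriers (1 of 2) and the PDH kinases (2 of 4). Over all genes tested it was 16.9%, and 26.1% where the mean reached 10 CPM or more. With so few genes a step, the count is no result about the step. IDH1 (Entrez gene 3417, GRCh38 chr2:208236227-208254458, minus strand), the cytosolic and peroxisomal NADP enzyme, had 139, 143 and 142 CPM in siNC and 110, 118 and 117 CPM in siSOWAHA. Every siSOWAHA library was below every siNC library by more than the range within either group. The level fell by 18.6% (log2 fold change -0.30, SE 0.039, 95% interval -0.38 to -0.21, edgeR adjusted p = 7.81e-05). The call remained without each of the 6 libraries in turn, with adjusted p from 0.000362 to 0.00116, and IDH1 was also lower in the FPKM table, from 48.5 ± 0.632 to 39.0 ± 1.31 FPKM (limma adjusted p = 0.000949). Its antisense transcript IDH1-AS1, which shares exon bases with it, was not analysed here.

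IDH2 (Entrez gene 3418, GRCh38 chr15:90083045-90102468, minus strand), the mitochondrial NADP enzyme, had 87.7, 83.8 and 88.1 CPM in siNC and 78.8, 76.7 and 77.8 CPM in siSOWAHA. The groups did not overlap. IDH2 fell by 10.2% (-0.15, SE 0.042, edgeR adjusted p = 0.02), and its limma adjusted p in the FPKM table was 0.0143. The count call was lost without siNC replicate 1 (0.0621), siNC replicate 3 (0.0773), siSOWAHA replicate 2 (0.0591) or siSOWAHA replicate 3 (0.0554).

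The log2 ratio of IDH1 to IDH2 in FPKM was 0.67, 0.76 and 0.68 in siNC and 0.48, 0.62 and 0.58 in siSOWAHA. The ratio was lower in all siSOWAHA libraries, by -0.14 in the mean, at the smallest exact permutation p that the design allows (0.1, adjusted 0.2).

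IDH3A (Entrez gene 3419, GRCh38 chr15:78149362-78171945, plus strand), the catalytic alpha subunit of the NAD-dependent enzyme of the cycle, had 88.0, 85.7 and 85.8 CPM in siNC and 93.8, 98.7 and 100.3 CPM in siSOWAHA. All siSOWAHA libraries were above all siNC libraries. IDH3A rose by 12.9% (0.17, SE 0.042, edgeR adjusted p = 0.00956). The count call remained without each library in turn, with adjusted p from 0.00628 to 0.0485. ACSBG1 and CIB2 share exon bases with IDH3A on the opposite strand, and both were under 1 CPM.

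The other subunits of the same enzyme were not called. IDH3B was nearly level (165, 168 and 165 CPM against 160, 170 and 164 CPM, -0.01, edgeR adjusted p = 0.915). IDH3G had 46.1, 46.0 and 49.7 CPM in siNC and 45.1, 40.0 and 42.2 CPM in siSOWAHA, all below siNC, and was not called (-0.16, SE 0.057, edgeR adjusted p = 0.0753). It shares exon bases with SSR4 on the opposite strand, which was not called (0.07). Leaving out siSOWAHA replicate 1, or a filter of 1 CPM, brought IDH3G past the threshold as lower. D2HGDH, which turns D-2-hydroxyglutarate into 2-oxoglutarate, had 21.3, 20.7 and 19.9 CPM against 18.6, 19.0 and 19.8 CPM, without overlap and without a call (-0.11, adjusted p = 0.374).

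**Figure D4:**
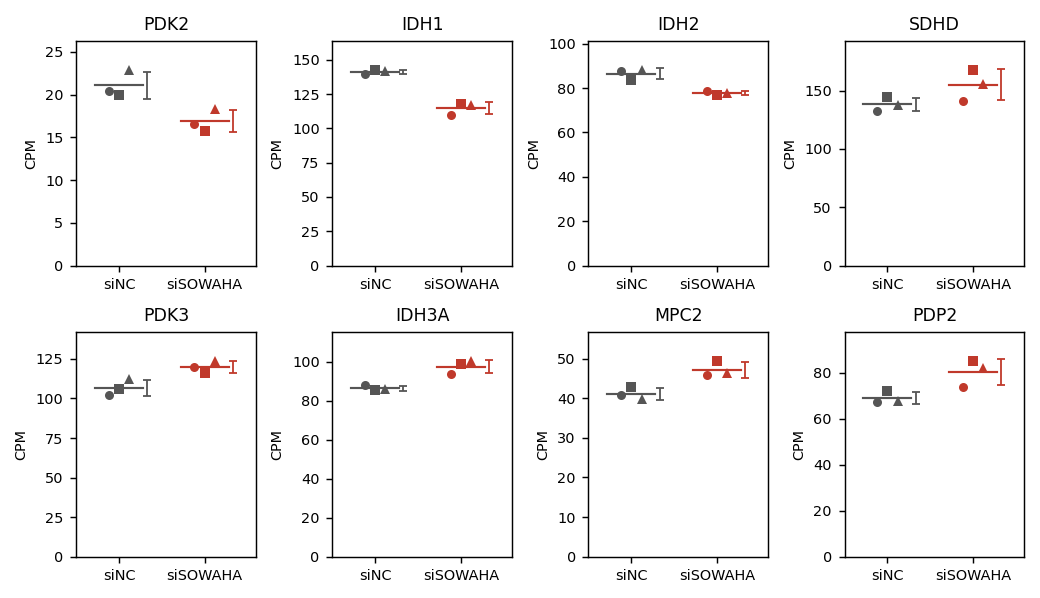
CPM of the 8 called genes in each library, 1 panel a gene (grey siNC, red siSOWAHA; circle, square and triangle are replicates 1, 2 and 3; horizontal bars are group means and brackets their SD). The groups are apart in 7 panels, IDH1 shows the clearest gap, and in SDHD siSOWAHA replicate 1 lies within the siNC range.

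The promoters of the pair of isocitrate dehydrogenase genes whose count calls held with each library left out, and that of SDHD, are shown as RefSeq gives them (GRCh38.p14, 250 bases before to 50 after the annotated start, read on the strand of the gene). They stand for the fall and the rise with the smallest adjusted p among the 42 and for the gene with most motif matches. Capitals mark matches on either strand to the core letters of motifs known from mitochondrial and hypoxia genes: GCATGCGC (NRF1), AAGGTCA (an ERR site), CCGGAAGT (GABPA) and ACGTG (the hypoxia response core).
IDH1 chr2:208254409-208254708, minus strand: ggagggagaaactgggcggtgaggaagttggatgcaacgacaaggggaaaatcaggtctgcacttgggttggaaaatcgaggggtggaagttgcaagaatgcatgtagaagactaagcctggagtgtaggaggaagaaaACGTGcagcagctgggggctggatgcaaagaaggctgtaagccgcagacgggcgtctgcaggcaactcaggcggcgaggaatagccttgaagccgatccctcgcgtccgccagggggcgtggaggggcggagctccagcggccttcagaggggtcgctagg
IDH3A chr15:78149112-78149411, plus strand: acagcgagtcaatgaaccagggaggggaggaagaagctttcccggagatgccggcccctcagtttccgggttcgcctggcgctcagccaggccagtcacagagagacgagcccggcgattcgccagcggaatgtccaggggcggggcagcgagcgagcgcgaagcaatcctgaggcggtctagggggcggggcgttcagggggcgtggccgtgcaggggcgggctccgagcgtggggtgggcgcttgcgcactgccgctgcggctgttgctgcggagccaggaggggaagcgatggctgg
SDHD chr11:112086623-112086922, plus strand: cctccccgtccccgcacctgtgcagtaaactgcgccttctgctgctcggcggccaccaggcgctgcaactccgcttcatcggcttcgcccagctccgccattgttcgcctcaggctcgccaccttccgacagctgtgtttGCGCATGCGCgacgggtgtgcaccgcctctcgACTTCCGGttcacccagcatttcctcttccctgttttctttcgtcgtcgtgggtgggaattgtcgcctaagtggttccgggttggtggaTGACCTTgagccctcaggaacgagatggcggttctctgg
The IDH1 window holds ACGTG 111 bases before the start, and the IDH3A window holds none of the 4 motifs. The SDHD window holds overlapping NRF1 matches at -110 and -108, a GABPA match at -78 and an ERR match at 11, counted from the annotated start. Of 39 members with a promoter in the table, 3 hold the NRF1 core (SDHAF2, SDHB and SDHD; 7.7%, beside 5.1% of the 13233 promoters of tested genes). The ERR letters are in 3 members (SDHB, SDHD and SUCLA2; 7.7%, beside 2.8%), and the GABPA core is in 5 (DLST, IDH3B, MDH2, SDHAF2 and SDHD; 12.8%, beside 7.7%). ACGTG is in 10 members, of which IDH1 fell, PDK3 and PDP2 rose and 7 were not called (25.6%, beside 25.9%). A match describes letters and is not evidence of binding.

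None of the 3 genes of the 2-oxoglutarate dehydrogenase step was called. OGDH, its E1 subunit, had 136, 140 and 138 CPM in siNC and 153, 142 and 150 CPM in siSOWAHA, without overlap (0.10, SE 0.038, edgeR adjusted p = 0.0781). It passed as higher when siSOWAHA replicate 2 was left out. DLST, the E2 succinyltransferase, which has 1 annotated pseudogene, overlapped (0.07, adjusted p = 0.236). OGDHL had 2.32, 1.14 and 2.05 CPM against 1.68, 0.902 and 1.86 CPM, and its 95% interval of -0.99 to 0.37 spans both a fall and a rise. These values rest on 124, 68 and 121 counts in siNC and 84, 49 and 99 counts in siSOWAHA, and no direction can be read from them.

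Succinyl-CoA ligase pairs the shared alpha subunit SUCLG1 with a GTP-type beta subunit, SUCLG2, or an ATP-type beta subunit, SUCLA2, and none of them was called. SUCLG2 had 60.9, 62.6 and 64.0 CPM in siNC and 52.9, 56.0 and 61.5 CPM in siSOWAHA (-0.14, SE 0.053, edgeR adjusted p = 0.094). The groups overlapped through siSOWAHA replicate 3, without which SUCLG2 passed as lower. SUCLG1 had 78.5, 76.3 and 79.7 CPM against 75.5, 89.4 and 87.3 CPM (0.11, adjusted p = 0.241), and passed as higher without siSOWAHA replicate 1. SUCLA2 was nearly level (0.04, adjusted p = 0.638).

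The log2 ratio of SUCLA2 to SUCLG2 in FPKM was 2.57 ± 0.097 in siNC and 2.75 ± 0.065 in siSOWAHA. It was higher in all siSOWAHA libraries (exact permutation p = 0.1, adjusted 0.2). Both beta subunit genes have annotated pseudogenes (3 for SUCLA2 and 2 for SUCLG2), and the counts of both are uncertain to that extent.

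Succinate dehydrogenase, which is also complex II of the respiratory chain, had 1 call among 4 subunits and 2 assembly factors. SDHD (Entrez gene 6392, GRCh38 chr11:112086873-112095794, plus strand), a membrane anchor, had 133, 145 and 137 CPM in siNC and 142, 168 and 156 CPM in siSOWAHA. The groups overlapped, because siSOWAHA replicate 1 lay below siNC replicate 2. The rise was 12.2% (0.17, SE 0.054, edgeR adjusted p = 0.0465). The call was lost without siNC replicate 1 (0.187), siNC replicate 3 (0.128), siSOWAHA replicate 2 (0.202) or siSOWAHA replicate 3 (0.13), and SDHD was not called in the FPKM table (limma adjusted p = 0.111). SDHD shares exon bases with TIMM8B on the opposite strand, which rose from 37.5 to 46.6 CPM (0.32, SE 0.055, edgeR adjusted p = 0.000996). It also shares exon bases with AP002884.3 on the same strand, which a strand setting cannot tell apart. SDHD further has 3 annotated pseudogenes, so its counts are uncertain.

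SDHB, the iron-sulfur subunit, had 105, 109 and 104 CPM in siNC and 111, 123 and 112 CPM in siSOWAHA, without overlap (0.12, SE 0.045, edgeR adjusted p = 0.0954). SDHA, the flavoprotein subunit that oxidises succinate, overlapped between groups (-0.04, 95% interval -0.10 to 0.02), and so did the other anchor, SDHC (0.02, adjusted p = 0.838). SDHA has 3 annotated pseudogenes and SDHC 4, so reads could have been split between them. SDHAF1, which helps to put iron-sulfur clusters into SDHB, and SDHAF2, which helps to attach the flavin to SDHA, also overlapped (0.12, adjusted p = 0.499, and -0.02, adjusted p = 0.83).

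The last steps of the cycle gave estimates close to 0. MDH2 had 402, 386 and 386 CPM in siNC and 395, 398 and 379 CPM in siSOWAHA, with a log2 fold change of -0.001 and a 95% interval of -0.07 to 0.06. FH, which hydrates fumarate to malate, was at -0.01 (interval -0.09 to 0.07) and MDH1 at -0.02 (interval -0.10 to 0.06). For these 3 genes the interval excludes a change of 1.2-fold. FH, like ME2, has 1 annotated pseudogene that could share reads. The log2 ratio of MDH1 to MDH2 in FPKM was -0.18 in siNC and -0.19 in siSOWAHA (exact permutation p = 0.7).

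The mitochondrial malic enzymes, which turn malate into pyruvate, and the carriers that exchange carboxylic acids across the inner membrane were not called either. ME2 was at -0.08 (edgeR adjusted p = 0.362) and ME3 at -0.10 (0.545), and the log2 ratio of ME3 to ME2 in FPKM was -1.60 in siNC and -1.62 in siSOWAHA (exact permutation p = 0.8). The citrate carrier SLC25A1, with 5 annotated pseudogenes, was at 0.02 (adjusted p = 0.866) and the dicarboxylate carrier SLC25A10 at -0.03 (0.72). The 2-oxoglutarate and malate carrier SLC25A11 had 71.8, 73.3 and 73.4 CPM against 74.3, 76.7 and 75.5 CPM, without overlap and at 0.05 (adjusted p = 0.469). Its opposite-strand partner RNF167 rose (0.18).

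In the deposited FPKM table, 41 of the 42 genes could be tested with limma on log2(FPKM + 1), and 7 were called, beside 20% of the 12027 genes tested there. MPC2, PDP2 and IDH3A were higher, and MPC1, PDK2, IDH1 and IDH2 were lower. Of the 8 genes called in the count table, 6 were called in the same direction here, and PDK3 and SDHD were not. The FPKM values derive from those counts and are no independent support. The IDH1 call here held in all 10 alternatives, and that of IDH2 was lost without siNC replicate 3 (limma adjusted p = 0.0532). The IDH3A call was lost with the replicate block and without siNC replicate 2, siNC replicate 3, siSOWAHA replicate 2 or siSOWAHA replicate 3 (limma adjusted p up to 0.0773). The calls of MPC2 and PDK2 were each lost in 5 alternatives, and SDHD gained one with the replicate block or without siSOWAHA replicate 1.

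**Figure D5:**
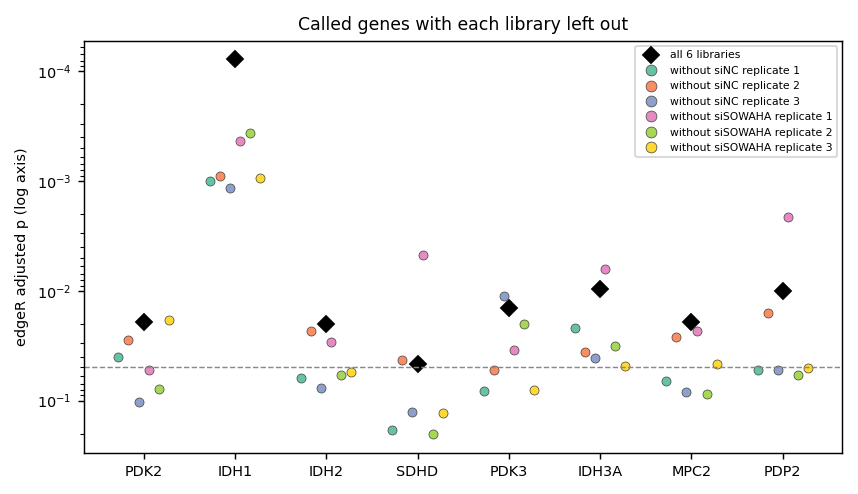
Adjusted p (edgeR, log axis with small p at the top) of each of the 8 called genes with all 6 libraries and with each library left out in turn; the dashed line marks the threshold of 0.05. IDH1 and IDH3A stay on the passing side, above the line, in every case, and each of the other 6 genes falls under it in at least 3 cases.

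Of 33 neighbouring genes of the same metabolism, 29 were listed, 4 were not analysed here and 27 could be tested. Of these, 5 rose and 1 fell (22.2%), beside 16.9% of all genes tested and 26.1% of those with a mean of at least 10 CPM. The number of calls is thus close to the background and is no result about this list. The median log2 fold change was 0.06, beside -0.008 over all genes tested. ME1, the cytosolic malic enzyme that makes NADPH, had 41.0, 42.4 and 41.3 CPM in siNC and 60.1, 66.9 and 60.9 CPM in siSOWAHA, with a wide gap between the groups (0.59, SE 0.051, edgeR adjusted p = 1.39e-06). Its mitochondrial relatives ME2 and ME3 were not called, as given above. SDHAF3, an assembly factor of succinate dehydrogenase, had 18.4, 16.5 and 17.2 CPM against 21.0, 23.1 and 22.2 CPM (0.35, adjusted p = 0.00648).

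GOT2, the mitochondrial aspartate aminotransferase, had 445, 446 and 448 CPM in siNC and 479, 476 and 478 CPM in siSOWAHA and rose (0.10, edgeR adjusted p = 0.0143). DHTKD1, an E1 subunit of a 2-oxoadipate dehydrogenase related to OGDH, had 33.2, 36.0 and 36.1 CPM against 30.2, 31.7 and 28.1 CPM and fell (-0.23, adjusted p = 0.0277). Without siNC replicate 3 or without siSOWAHA replicate 3, 3 of the 27 passed in place of 6; ME1 and SDHAF3 passed without each library in turn.

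The 3' untranslated regions (UTRs) of the 42 genes (longest of each gene in GENCODE 29, GRCh38) were also read for AGATTTC or GATTTCA and for TCGGAGA or CGGAGAA, heptamers brought forward from an earlier examination of these same data. The first pair was in 11 of the 42 genes (26.2%), beside 23.7% of the 12640 tested genes with such a UTR. None of the 3 genes that fell held it, nor did 4 of the 5 that rose, and 10 of the 34 uncalled genes did. The second pair was in 1 gene, SDHC, beside 4.2% of all. The shares were not adjusted for UTR length, whose median was 942.5 nt in the 42 genes, beside 1340 nt over all. The full 8 letters AGATTTCA, in capitals, are shown for 3 genes with different outcomes, MPC1 below siNC in every library, PDK1 overlapping and PDP2 risen.
MPC1: ctgagtcacAGATTTCAttataaata
PDK1: aaactatccAGATTTCAttatcaggg
PDP2: tttatacggAGATTTCAgtattgaga
These sites begin at base 61, base 1483 and base 3277 of the UTR. PDP1 holds the same 8 letters once, and its estimate was -0.19. SDHC holds them at 3 places, and its estimate was 0.02. The UTRs read for SDHC and PDK1 were 12907 and 12700 nt long, and whether SW620 cells make them was not tested.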

How the data were processed

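SW620 cells were taken 72 h after transfection, and libraries were made from poly(A) RNA with an RNA integrity number above 7.0, strand-marked (dUTP) and read as pairs of 150 nt, per the labels' protocols. The submitters' processing notes name cutadapt 1.9, FastQC and the build GRCh38. How reads were aligned and counted, with which strand setting and annotation, is not given in the sources used here. Raw counts of 39554 genes were deposited by the authors, and for 24901 genes the deposited table also holds FPKM values. No column of sample values was left unused (0).

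Counts were tested with edgeR 4.0.16 in R 4.3.3 (filterByExpr, TMM factors, robust quasi-likelihood fit, group as the only term), with Benjamini-Hochberg adjustment over all 17693 genes kept and a threshold of 0.05. The common biological coefficient of variation was 0.105. CPM values use the TMM factors. FPKM values were tested as log2(FPKM + 1) with limma 3.58.1 for 12027 genes of at least 1 FPKM in 3 libraries. This scale understates changes of low genes. Ratios within a step were compared by exact two-sided permutation (SciPy 1.17.1, Python 3.11.15). The fits were tested on simulated data. DESeq2 1.42.0 and limma-voom were alternatives, beside other scalings, filters, thresholds, pseudocounts, a null of 1.2-fold, a replicate block and leaving out each library.

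Within a group, libraries were further apart than counting noise (chi-square over its degrees of freedom 8.09 to 14.8) and each was used as 1 replicate. Same-numbered libraries of the groups did not deviate together (correlations of -0.304, -0.0124 and -0.0153), so the numbers were not taken to pair them. The text names all 42 genes, SOWAHA, and of a neighbouring list of 33 genes those called, at most 10; some of the latter are not reported here. The members, lists and heptamers were chosen with earlier results of these data known. 3' UTRs of at least 50 nt were built from GENCODE 29. Exon overlaps come from the same annotation.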

Additional observations from a re-analysis of the deposited data

How the results depend on the processing

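How small a change the counts resolve with 3 libraries a group differed by gene. GOT2 passed with a rise of 7.09%, while PDK4, with an estimate of 34.9%, did not. Exact tests of ratios cannot go below p = 0.1. Leaving out 1 library in turn gave 1978 to 2678 called genes (1075 to 1453 higher and 871 to 1225 lower) beside 2988, and 3 to 9 called members (1 to 6 higher and 1 to 3 lower) beside 8. The members called were 3 without siNC replicate 1 or siNC replicate 3, 4 without siSOWAHA replicate 2, 5 without siSOWAHA replicate 3 and 9 without siSOWAHA replicate 1. In the FPKM table these ranges were 1408 to 2020 genes and 1 to 9 members, and in the neighbouring list 3 to 6 genes. The fits without a library have fewer samples; further causes were not tested.

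At a threshold of 0.01, 1556 genes (863 higher and 693 lower), 2 members (1 higher and 1 lower) and 2 neighbouring genes were called. Against a null of 1.2-fold, edgeR called 298 genes (152 higher and 146 lower), 0 members (0 higher and 0 lower) and 1 neighbouring gene. Both settings ask for more by construction. With no filter on FPKM, which adds genes to the test, 1423 genes and 3 members were called. Upper-quartile scaling gave 1328 higher and 1558 lower genes, and 4 higher and 3 lower members. SDHD lost its call with that scaling, with library totals alone, with no filter on counts, with limma-voom and without the robust step. With the replicate block, 2599 genes and 8 members (5 higher and 3 lower) were called in the counts and 1880 genes and 6 members in the FPKM table, so the block moved no count by over 1.5 times. The split at a mean of 10 CPM and the alternatives for the neighbouring list were chosen after seeing the data.

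Signs that turned without 1 library or another belonged to uncalled values near 0, whose log2 fold changes without each library ran from -0.01452 to 0.01087 for DLD, -0.03147 to 0.01085 for IDH3B, -0.007831 to 0.07279 for SDHC, -0.0686 to 0.02765 for SDHAF2, -0.02717 to 0.02048 for FH, -0.04788 to 0.009239 for MDH1, -0.01503 to 0.02138 for MDH2 and -0.02624 to 0.08901 for SLC25A1. In log2(FPKM + 1) they ran from -0.008923 to 0.04595 for SUCLA2, -0.021 to 0.04784 for SDHC, -0.08458 to 0.01019 for SDHAF2, -0.03953 to 0.0003282 for FH, -0.03054 to 0.004782 for MDH2 and -0.04047 to 0.07309 for SLC25A1. The group differences of log2 ratios ran from -0.1171 to 0.04598 for ME3 over ME2, -0.04685 to 0.01952 for MDH1 over MDH2 and -0.002615 to 0.05813 for PDHX over DLAT. The cause was not tested.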
